A study of Sus scrofa with 18 samples.

Results

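Livers of male piglets (boars) raised on soy-based infant formula were compared here with livers of male piglets suckled by the sow. The comparison rests on 6 of the 18 RNA pools of the study: the 3 male pools titled as soy formula fed and the 3 male pools titled as sow fed, chosen by sex and diet from the titles. The study moved piglets of both sexes from the sow to a commercial soy-based or cow's milk-based formula on day 2 of life and kept them on it until day 21, while the sow-fed piglets stayed on sow milk. Frozen liver was taken on day 21, and 8 ug of total RNA per pool was labelled for an Affymetrix porcine expression array. Each of the 6 groups (3 diets, 2 sexes) held 3 pools. The number of animals in a pool is not stated, so each p-value rests on the spread among pools and not among animals, and a formula stands here for everything in which it differs from sow milk, the feeding from a sow included.

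A deposited value is an expression ratio of 1 probe set (the group of probes for one transcript) on 1 array. What the ratio was taken to is not described. Over the 18 arrays, 5271 of the 24123 probe sets had a median within 0.002 of 1 and 0 had a higher one. All others had a lower median, so a divisor equal to each probe set's median does not cover them, and its rule is not known. The divisor is taken here as shared by the arrays. Ratios of one gene are therefore compared between pools, while ratios of different genes are not. Differences are given as log2 of soy formula over sow milk with the standard error (SE) of a limma fit to the 6 pools alone, 3 per group. The words rose and fell are kept for genes whose p-value, adjusted over all 23935 probe sets with the Benjamini-Hochberg method, was under 0.05.

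The sex labels were checked first, and the liver label could not be checked, since ratios do not show which genes are abundant. The Y-linked gene EIF1AY had ratios of 0.15 to 0.421 on the 9 male arrays and of 0.115 to 0.145 on the 9 female arrays, which did not overlap. SRY, the other one measured, overlapped slightly, with 0.173 to 0.258 on male and 0.148 to 0.177 on female arrays. Median ratios per array ran from 0.301 to 0.307. Soy pool 2 stood apart from the others: its median correlation with the other 5 arrays was 0.784, against 0.806 to 0.835 for those, and its estimated array weight of 0.759 was the lowest, against 0.928 to 1.18. Results are therefore also given without it. The spread between pools was larger in males than in females, with a median standard deviation of 0.314 against 0.124 on the log2 scale, and the added hybridisation controls were 7.83-fold higher on the 6 male than on the 6 female arrays, so sex and any difference between array runs cannot be told apart.

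As background, liver cells make cholesterol from acetyl-CoA through the mevalonate and squalene pathway, whose enzymes are switched on together by the transcription factor SREBP2 when cell cholesterol is low, and fatty acid enzymes are similarly under SREBP1c. Cholesterol leaves the liver chiefly as bile acids, whose synthesis starts with the enzyme CYP7A1. The liver also makes hepcidin, the hormone that blocks iron release into blood, under control of bone morphogenetic protein (BMP) signals, and most plasma proteins, including complement and the acute-phase proteins.

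Of the 23935 probe sets, 54 (0.226%) differed between male soy formula and sow milk pools: 36 (0.15%) were higher and 18 (0.0752%) lower on soy formula. At an unadjusted p under 0.05 the fit gave 1753 probe sets (7.32%), of which 807 (3.37%) were higher and 946 (3.95%) lower. Soy pools lay wholly above sow pools for 1390 probe sets (5.81%) and wholly below for 1475 (6.16%), 12% together. The median difference over all probe sets was 0.00. Among the 54, 34 name 1 gene, 1 names several and 19 name none. Cholesterol and fatty acid enzymes, hepcidin and drug-metabolising enzymes made up most of the named rises, and plasma proteins, the transferrin receptor and genes typical of fetal liver were among the named falls. The count changed with the pool left out: it was 38 without soy pool 2, and 14 and 21 without soy pools 1 and 3. Without sow pools 1, 2 and 3 it was 18, 17 and 27. All 54 kept their sign in each of these 6 fits, and 12 passed the threshold in all 6, while 13 passed it in none.

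**Figure D1:**
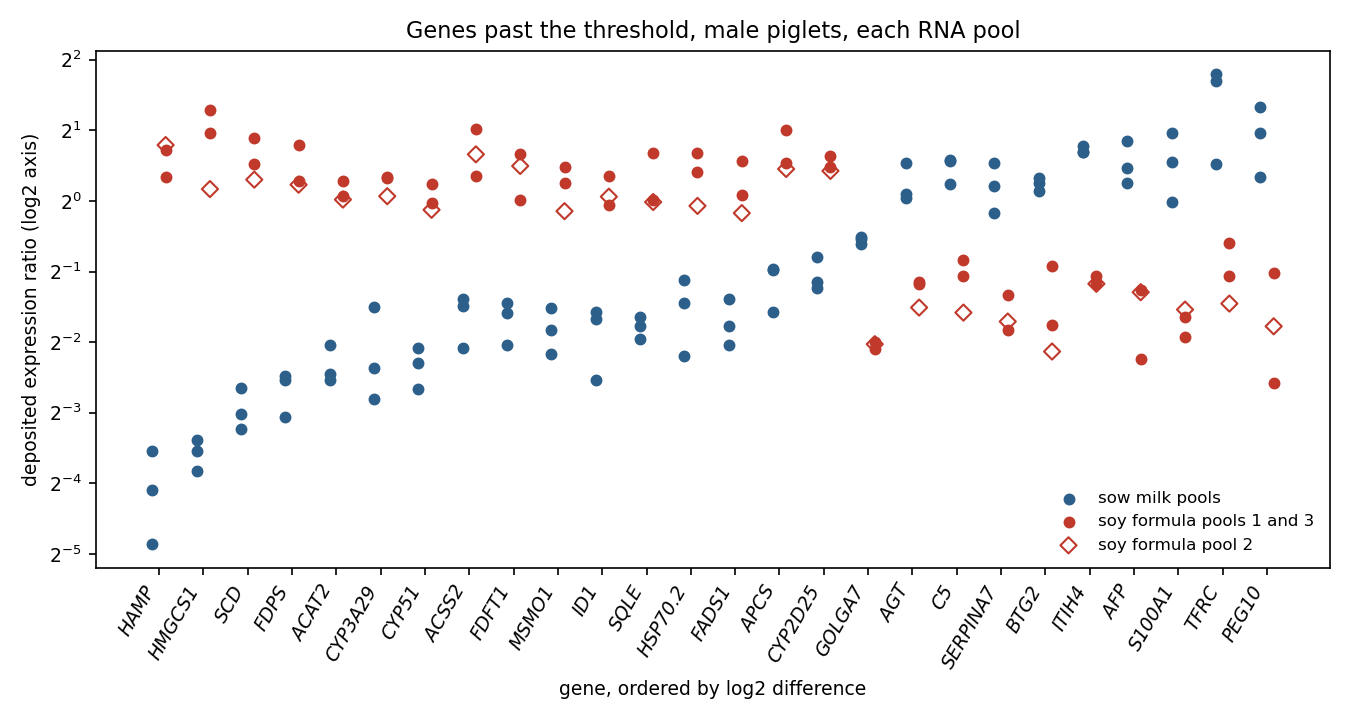
Ratio in each of the 6 male pools, on a log2 axis, for the 26 genes described below that passed the threshold; soy formula and sow milk pools are separate point sets and soy pool 2 is an open diamond. The groups do not overlap for any of the 26 genes, and HAMP and HMGCS1 show the widest gaps.

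Enzymes of cholesterol synthesis rose on soy formula. Of the 11 measured genes of this list, 7 rose and 0 fell, the soy and sow pools did not overlap for 10, and the median difference was 2.04. Over all named genes, 0.266% were higher past the threshold, 6.56% had soy pools wholly above sow pools, and the median was 0.00.

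HMGCS1, the synthase that makes HMG-CoA, the precursor of mevalonate, had ratios of 2.44, 1.12 and 1.95 in soy pools 1, 2 and 3. In sow pools 1, 2 and 3 its ratios were 0.0858, 0.0957 and 0.0707. Every soy pool was thus far above every sow pool, and soy pool 2 was the lowest of the soy pools. The difference was 4.39 (SE 0.30), or 21.0-fold, with a limma adjusted p of 1.95e-04, and 3.33 with an offset of 0.1 added before log2. FDPS, which builds farnesyl diphosphate, gave 1.74, 1.17 and 1.21 on soy formula against 0.172, 0.12 and 0.179 on sow milk. This was a rise of 3.13 (SE 0.26) with a limma adjusted p of 7.38e-04 (2.51 with the offset), and the 3 pools of each diet lay close together.

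Further along the pathway, FDFT1, the squalene synthase, rose by 2.08 (SE 0.26), from 0.332, 0.243 and 0.368 on sow milk to 1.59, 1.41 and 1.01 on soy formula. SQLE, the squalene epoxidase, rose by 2.02 (SE 0.25), from 0.257, 0.32 and 0.292 to 1.6, 0.989 and 1.01. CYP51 and MSMO1 act after lanosterol. CYP51, the lanosterol demethylase, rose by 2.38 (SE 0.24), from 0.204, 0.236 and 0.158 to 1.18, 0.916 and 0.981. MSMO1, the sterol methyl oxidase, rose by 2.04 (SE 0.26) with its main probe set, while its other 2 probe sets gave 1.32 and 0.05 and did not pass, and the mean of the 3 gave 1.14 (limma adjusted p 0.0848). ACAT2, which joins acetyl-CoA units at the entry of the pathway, rose by 2.47 (SE 0.23) and by 2.70 (SE 0.29) with 2 probe sets.

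The 4 measured members not past the threshold had positive differences too: 1.30 for SC5D, 1.19 for TM7SF2, 0.73 for NSDHL and 0.70 for HSD17B7. HMGCS1, FDPS, ACAT2 and CYP51 passed in each of the 6 fits without 1 pool. FDFT1 missed the threshold without sow pool 1, sow pool 2 or soy pool 1 (largest limma adjusted p 0.0666), SQLE without sow pool 1, 2 or 3 or soy pool 1 (largest 0.0620), and MSMO1 without sow pools 1 or 3 or soy pools 1 or 3 (largest 0.0707). All 7 passed without soy pool 2.

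Genes for uptake, export and sensing of sterols gave no call. None of 14 measured members passed, and the median difference was -0.05. NPC1, which exports cholesterol from lysosomes, gave 1.84, 0.838 and 0.918 on soy formula against 0.326, 0.662 and 0.582 on sow milk, a difference of 1.17 (SE 0.36, limma adjusted p 0.441). SREBF2, the gene of SREBP2 itself, differed by 0.47, with soy pools of 0.86 to 1.02 and sow pools of 0.58 to 0.843. INSIG1, which holds SREBP in the endoplasmic reticulum, overlapped between the diets with soy pools of 0.377 to 1.1 and sow pools of 0.249 to 0.899. Its difference of 0.35 turned to -0.20 without sow pool 1 and to -0.00432 without soy pool 2.

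Among the genes of fatty acid and triglyceride synthesis, 3 of 22 rose and 0 fell, soy and sow pools did not overlap for 11, all of them with soy above sow, and the median difference was 0.59. The shares over all named genes were 0.266% higher past the threshold and 6.56% wholly above. SCD, the desaturase that makes oleic acid from stearic acid, gave 1.85, 1.23 and 1.44 in the soy pools. The sow pools gave 0.123, 0.107 and 0.159 for SCD. This rise of 3.54 (SE 0.25), or 11.6-fold, had a limma adjusted p of 2.12e-04 (2.79 on the log2 scale with an offset of 0.1) and was past the threshold in each fit without 1 pool.

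ACSS2, which makes cytosolic acetyl-CoA from acetate, gave 2.02, 1.58 and 1.28 on soy formula and 0.237, 0.383 and 0.355 on sow milk. It rose by 2.33 (SE 0.27), with 2.57 (SE 0.35) from a second probe set that also passed, and missed the threshold only without soy pool 1 (limma adjusted p 0.0520). FADS1, the delta-5 desaturase of polyunsaturated fatty acids, gave 1.48, 0.887 and 1.06 against 0.293, 0.244 and 0.382. It rose by 1.89 (SE 0.27) and missed the threshold without sow pools 1 or 2 or soy pools 1 or 3 (largest limma adjusted p 0.127). FASN, the fatty acid synthase, gave 1.13, 0.951 and 1.54 against 0.274, 0.519 and 0.572, so that its pools did not overlap. Its difference of 1.45 (SE 0.31) had a limma adjusted p of 0.162, and its other 3 probe sets gave 0.19 to 0.38.

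**Figure D2:**
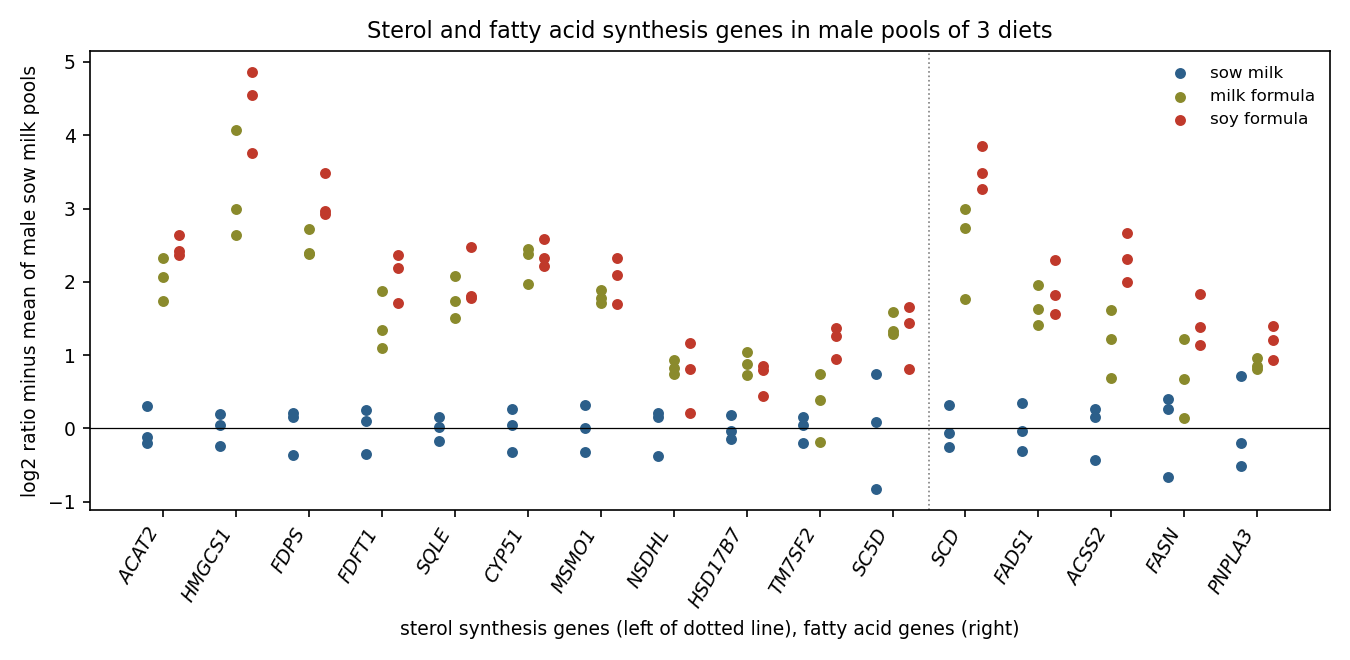
Log2 ratio minus the mean of the male sow milk pools for sterol synthesis genes (left) and fatty acid genes (right), with 1 point per pool for the 3 male diets. For HMGCS1 the soy formula pools lie above the sow milk pools by 4.39 on average and the milk formula pools by 3.24.

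Hepcidin had the largest rise of any named gene past the threshold. HAMP, its gene, gave 1.26, 1.73 and 1.64 in soy pools 1, 2 and 3. The sow pools gave 0.0587, 0.0857 and 0.0344 for HAMP, all far below. The difference was 4.78 (SE 0.32), or 27.5-fold, with a limma adjusted p of 1.95e-04, and it was past the threshold in each of the 6 fits without 1 pool, at 4.69 without soy pool 2. The size of the fold rests on the low sow ratios, and with an offset of 0.1 before log2 the difference was 3.37. Here soy pool 2 was the highest of the soy pools, unlike in most lipid genes.

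ID1, a target of BMP signals, gave 0.958, 1.04 and 1.27 on soy formula and 0.173, 0.336 and 0.315 on sow milk. Its rise of 2.04 (SE 0.29, limma adjusted p 0.0171) missed the threshold in all 6 fits without 1 pool, with adjusted p from 0.0518 to 0.0911 and 0.0619 without soy pool 2. The related ID2 and ID3 gave -0.32 and -0.18. TFRC, the transferrin receptor that takes iron into cells, gave 0.66, 0.365 and 0.478 against 3.47, 1.43 and 3.25. It fell by 2.38 (SE 0.36, limma adjusted p 0.0224), with every soy pool below every sow pool and the sow pools themselves widely spread. That call was kept only without sow pool 2, and the adjusted p was 0.114 without soy pool 2 and at most 0.131. With an offset of 0.1 before log2 the fall of TFRC had a limma adjusted p of 0.0590.

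Of the 17 measured genes of the iron and BMP list, 2 rose and 1 fell, which are the 3 just named, and the list's median was -0.14. The shares called over all named genes were 0.266% higher and 0.163% lower. FTL, the ferritin light chain, gave 0.367, 0.475 and 0.412 on soy formula and 0.944, 1.06 and 0.654 on sow milk. Its difference of -1.06 (SE 0.25) had a limma adjusted p of 0.211, and a second probe set of the same gene gave 0.32. TFRC is also made by red cell precursors. The summed ratio of the 6 erythroid markers, TFRC among them, was 2.74 to 3.61 on soy formula and 3.77 to 5.53 on sow milk. Of the other 5, beta-globin (HBB) gave -0.23, ALAS2 -0.18, HBE1 0.04, EPOR 0.04 and AHSP 1.11, none past the threshold, and the part of red cell precursors in the TFRC value was not tested.

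For bile acid synthesis and transport none of 8 measured genes passed. CYP7A1, the rate-limiting enzyme, varied most between the soy pools, at 1.36, 0.502 and 4.39 against 0.301, 0.201 and 0.215 on sow milk. All soy pools were above all sow pools, and soy pool 2 was the lowest of them. The difference of 2.62 (SE 0.60) had a limma adjusted p of 0.192, and without soy pool 2 it was 3.38 with an adjusted p of 0.0264, while without soy pool 3 it was 1.81. The bile salt transporters ABCB11 and SLC10A1 gave 0.48 and 0.51, CYP8B1 gave -0.24, and CYP27A1 of the alternative pathway gave 0.29.

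Drug-metabolising enzymes and their receptors had 2 rises and 0 falls among 32 measured genes, 8 with soy pools wholly above sow pools and 1 below, and a median of 0.16, beside 0.266% called higher, 6.56% wholly above and 6.92% wholly below over all named genes. CYP3A29, a porcine member of the main drug-oxidising family, gave 1.27, 1.05 and 1.25 on soy formula against 0.352, 0.143 and 0.194 on sow milk. It rose by 2.47 (SE 0.31, limma adjusted p 0.00934), and the call was lost without sow pools 2 or 3 or soy pools 1 or 3 (largest adjusted p 0.0707). Its relatives gave 0.94 for CYP3A46, -0.12 for CYP3A39 and -0.39 for CYP3A22. These genes are close in sequence, and cross-hybridisation between them was not tested.

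CYP2D25, a hydroxylase of the CYP2D family, gave 1.55, 1.34 and 1.39 against 0.425, 0.453 and 0.579. This rise of 1.57 (SE 0.23, limma adjusted p 0.0172) was past the threshold only without sow pool 3 among the fits without 1 pool, with 0.0563 without soy pool 2 and 0.0576 with a replicate block, and a second probe set gave -0.33. With the mean of both probe sets the difference was 0.62 (adjusted p 0.505). CYP1A1, which responds to ligands of the aryl hydrocarbon receptor, had soy pools of 0.949 to 1.95 and sow pools of 0.384 to 0.861. Its difference of 1.06 (SE 0.35) had a limma adjusted p of 0.509.

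In the heat shock and folding list 1 of 16 genes rose and 0 fell, with a median of 0.32, beside 0.266% called higher and 0.163% lower over all named genes. HSP70.2, an inducible chaperone, gave 1.33, 0.952 and 1.61 on soy formula and 0.366, 0.218 and 0.458 on sow milk, a rise of 1.93 (SE 0.31, limma adjusted p 0.0350). A second probe set rose by 1.98 and another gave 1.43 without passing, and HSP70 genes are near-identical, so their signals may be shared. The call was lost in all 6 fits without 1 pool (adjusted p 0.0529 to 0.175, the first without soy pool 2) in a fit to all 9 male arrays (0.0515), with an offset of 0.1 (0.0591) and with the mean of the 3 probe sets (0.0931). HSPA8 and HSPH1, a constitutive chaperone and its co-chaperone, gave 0.91 and 0.78.

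Acute-phase proteins, which the liver secretes in altered amounts in inflammation, went both ways. Of 18 measured, 1 rose and 1 fell, soy pools were wholly above sow pools for 2 and wholly below for 8, and the median was -0.31. Over all named genes 0.266% were called higher and 0.163% lower, and 6.56% lay wholly above and 6.92% wholly below. APCS, serum amyloid P component, gave 2.00, 1.37 and 1.45 on soy formula against 0.506, 0.337 and 0.514 on sow milk. It rose by 1.83 (SE 0.26, limma adjusted p 0.0171), and of the 6 fits without 1 pool it passed only without soy pool 2 (largest adjusted p 0.117). CRP, the related C-reactive protein, gave 1.77, 1.04 and 1.23 against 0.617, 0.534 and 0.322, a difference of 1.47 (SE 0.30) with a limma adjusted p of 0.124. The pools of CRP did not overlap either.

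ITIH4, a heavy chain of the inter-alpha-trypsin inhibitors and a major acute-phase protein of pigs, moved the other way with little spread. Its ratios were 0.479, 0.443 and 0.441 on soy formula. They were 1.71, 1.62 and 1.61 on sow milk, so that the 2 diets were cleanly apart. ITIH4 fell by 1.86 (SE 0.21, limma adjusted p 0.00499), and this fall was past the threshold in each fit without 1 pool. LBP, the lipopolysaccharide-binding protein, gave 0.44, 0.34 and 0.342 against 1.13, 0.937 and 0.649, a difference of -1.25 (SE 0.26) with a limma adjusted p of 0.136.

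Complement and coagulation genes lay lower on soy formula as a list, although 1 of 29 passed the threshold. All 29 measured members had negative differences, 14 had soy pools wholly below sow pools and 0 wholly above, and the median was -0.43. The same shares over all named genes were 0.163% called lower and 6.92% wholly below. C5, which gives the anaphylatoxin and starts the membrane attack complex, had 0.562, 0.334 and 0.477 on soy formula and 1.48, 1.18 and 1.49 on sow milk. It fell by 1.62 (SE 0.26, limma adjusted p 0.0312), but was lost in all 6 fits without 1 pool, with adjusted p from 0.0669 to 0.165 and 0.110 without soy pool 2, where the list had 0 calls. The terminal component C9 gave -0.76, C7 -1.22 and the proteases C1R and C1S -0.68 and -0.74, none past the threshold.

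Summed markers of macrophages and endothelial cells were lower beside these genes, with no overlap between the diets. Such a sum adds ratios of different genes, so it does not weigh the markers by abundance. The summed ratio of the 7 macrophage markers was 3.44 to 4.19 in the soy pools and 4.998 to 6.71 in the sow pools (exact two-sided permutation p 0.1, the smallest that 3 against 3 pools can give). All 7 had negative differences, with VSIG4, a complement receptor of Kupffer cells, at -1.20 and MARCO at -0.01, and 0 passed the threshold. For the 8 endothelial markers the sums were 3.02 to 4.16 and 4.52 to 5.82 (p 0.1 by the same exact permutation test). Of these markers 7 had negative differences and 1 a positive one, and 0 passed the threshold. CDH5, the adhesion protein of endothelial junctions, was the lowest at -1.11, and VWF was the positive one at 0.02. The 8 stellate cell or fibroblast markers summed to 5.73 to 5.92 and 5.96 to 6.60 (exact permutation p 0.1). Of these, 5 had positive and 3 negative differences, and the median difference of 0.09 points the other way from the sum. The 12 hepatocyte markers summed to 8.03 to 9.61 on soy formula and 8.36 to 10.8 on sow milk, which overlapped (exact permutation p 0.3). In pooled liver RNA, fewer cells of a type and less RNA per cell cannot be told apart, and the part of these cells in the complement values was not tested. On milk formula the median against sow milk was 0.10 for the macrophage list and -0.10 for the complement list.

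**Figure D3:**
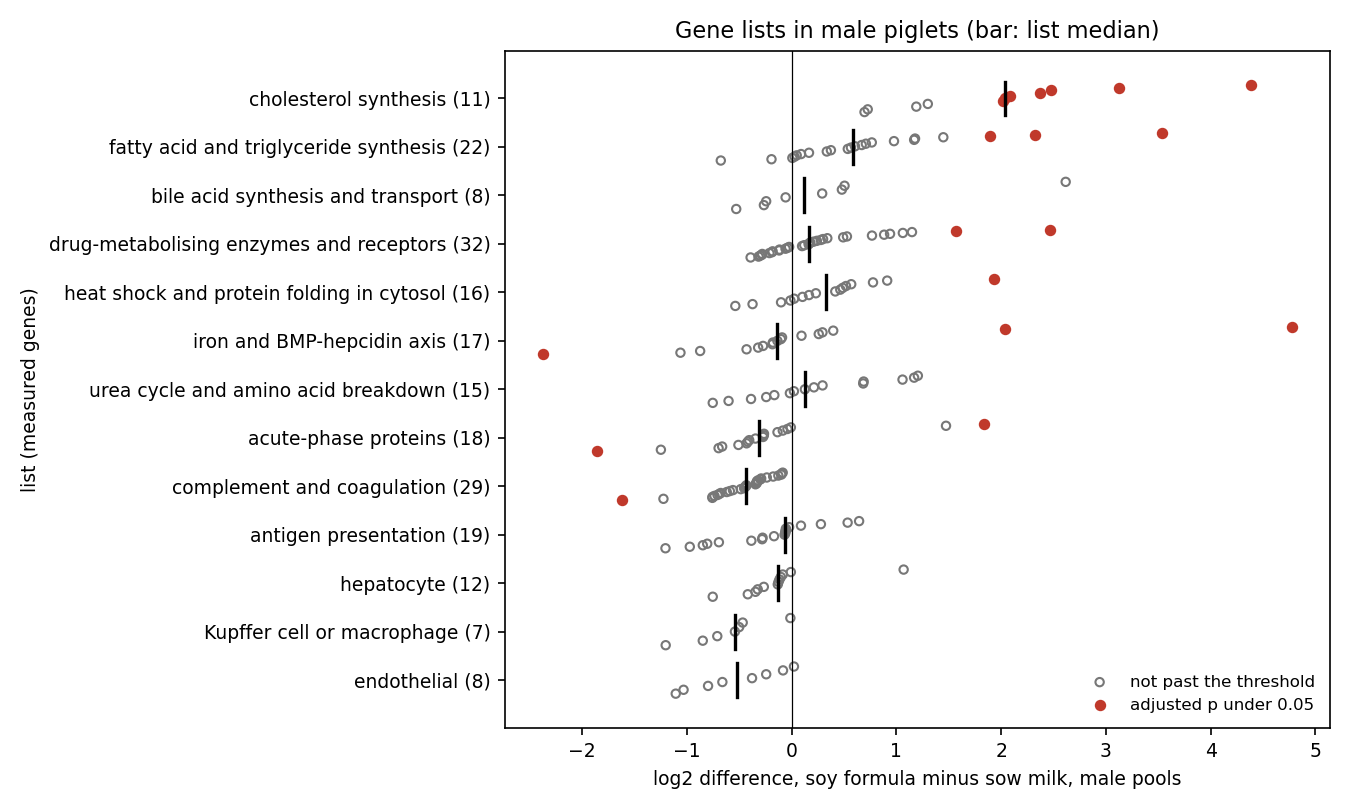
Log2 difference (soy formula minus sow milk, male pools) of each measured gene by gene list; filled points passed the threshold and the bar is the list's median. The cholesterol synthesis genes have a median of 2.04 and the complement and coagulation genes of -0.43.

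SERPINA7, thyroxine-binding globulin, gave 0.398, 0.306 and 0.281 on soy formula against 1.44, 1.16 and 0.892 on sow milk, a fall of 1.82 (SE 0.26, limma adjusted p 0.0171). AGT, angiotensinogen, gave 0.442, 0.351 and 0.45 against 1.45, 1.03 and 1.07, a fall of 1.51 (SE 0.24, limma adjusted p 0.0312). Neither gene's pools overlapped, but both calls were fragile. SERPINA7 passed only without sow pool 3 (0.0736 without soy pool 2, at most 0.119), and AGT passed in none of the 6 fits (0.101 to 0.165) nor with a block for the pool number (0.0633). A2M, the broad protease inhibitor alpha-2-macroglobulin, was called through a probe set other than its main one, at -1.74 against -0.66, and is named here after its values were seen.

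Of 6 measured genes typical of fetal liver, 2 fell and 0 rose, beside 0.163% called lower and 0.266% called higher over all named genes. The median of the list was 0.10. AFP, alpha-fetoprotein, the main plasma protein of the fetus, gave 0.419, 0.408 and 0.212 on soy formula and 1.19, 1.8 and 1.38 on sow milk. It fell by 2.12 (SE 0.30, limma adjusted p 0.0172), and of the fits without 1 pool passed only without soy pool 2 (largest adjusted p 0.127), and a fit to all 18 arrays gave 0.0993. PEG10, an imprinted gene derived from a retrotransposon, gave 0.491, 0.292 and 0.167 against 2.5, 1.95 and 1.27. It fell by 2.67 (SE 0.38, limma adjusted p 0.0172), the most of the named genes past the threshold, yet its other 2 probe sets gave -0.59 and 0.10 and the mean of the 3 was -1.05 (adjusted p 0.344). It was lost without sow pools 1 or 2 or soy pools 2 or 3 (largest adjusted p 0.127, 0.0789 without soy pool 2) and in a fit to all 9 male arrays (0.115). The other 4 members, GPC3, IGF2, PEG3 and HBE1, gave 0.04 to 0.64.

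S100A1, BTG2 and GOLGA7 are in none of these lists. S100A1, a calcium-binding protein, gave 0.263, 0.344 and 0.32 on soy formula against 1.95, 1.46 and 0.993 on sow milk. It fell by 2.20 (SE 0.28, limma adjusted p 0.00934) and missed the threshold without sow pools 1 or 2 or soy pools 1 or 3 (largest 0.0696). BTG2, an antiproliferative early-response gene, gave 0.295, 0.228 and 0.53 against 1.1, 1.2 and 1.25, a fall of 1.84 (SE 0.30, limma adjusted p 0.0378). BTG2 passed only without soy pool 3 (0.124 without soy pool 2, at most 0.197), and was lost in a fit to all 9 male arrays (0.0515) and with an offset of 0.1 (0.0587). GOLGA7, a cofactor of protein palmitoylation, gave 0.234, 0.245 and 0.25 against 0.702, 0.657 and 0.69.

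The pools of GOLGA7 were tightly grouped, and it fell by 1.49 (SE 0.21, limma adjusted p 0.0171). It passed in none of the fits without 1 pool (0.0529 to 0.0943, the first without soy pool 2) nor with a replicate block (0.0563), and a second probe set gave -0.14, so that the mean of both was -0.81 (adjusted p 0.264). DCN, the matrix proteoglycan decorin, and FAM3D, a secreted cytokine-like protein, came close at -1.34 (adjusted p 0.0562) and -1.45 (adjusted p 0.0603) in the limma fit. Their pools did not overlap, which the naming rule required of genes short of the threshold. A second probe set of DCN gave 0.22 with overlapping pools (limma adjusted p 0.909). Outside the naming rule, EIF4A1, a translation initiation helicase, rose by 1.501 and TSKU, a secreted proteoglycan, by 2.24 through a probe set other than its main one. Without soy pool 2 their limma adjusted p was 0.101 and 0.0686, and EIF4A1 passed in 0 and TSKU in 1 of the 6 fits without 1 pool. Both genes are named after their values were seen. Among the called probe sets without a gene name, the one with the largest rise rose by 3.72 and the one with the largest fall fell by 2.61. LOC396684, a locus without an official symbol, fell by 1.93 (SE 0.27, limma adjusted p 0.0171, 0.0245 without soy pool 2), and a probe set that the annotation gives to it and 3 other loci fell by 3.25. LOC100515394 rose by 1.51 (SE 0.22, limma adjusted p 0.0178, 0.0474 without soy pool 2). Each of these LOC loci passed in 1 of the 6 fits without 1 pool.

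Glucose, nitrogen and growth genes gave no call. None of the 15 measured genes of gluconeogenesis and glycogen passed, with a median of -0.01. PCK1, which commits carbon to glucose synthesis, gave 0.171, 0.897 and 0.324 on soy formula and 1.65, 1.25 and 2.4 on sow milk. Its difference of -2.21 (SE 0.50) had a limma adjusted p of 0.182, and without soy pool 2, the highest of the soy pools, it was -2.86 with an adjusted p of 0.0245. None of 15 genes of the urea cycle and amino acid breakdown passed. ARG1, the arginase of the urea cycle, gave 1.49, 1.05 and 0.946 against 0.503, 0.39 and 0.663, a difference of 1.17 (SE 0.27, limma adjusted p 0.206), while CPS1, which feeds ammonia into the cycle, gave -0.16 with overlapping pools.

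None of 17 genes of the growth hormone and IGF axis passed. IGF1 itself differed by 0.01 (SE 0.28), with soy pools of 0.976 to 1.14 inside the sow range of 0.772 to 1.58. IGFBP1, a binding protein that fasting induces, differed by -1.15 (SE 0.62) with overlapping and widely spread pools, by -0.29 without soy pool 2 and by -1.77 without soy pool 3. IGFBP2 differed by 0.12 (SE 0.23). The sign of the small IGF1 difference changed between fits, which says only that it lies near 0.

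Leaving out soy pool 2 gave 38 probe sets (0.159%), 29 higher and 9 lower. Of the 54, 34 were called in that fit too and 20 were not, with adjusted p of at most 0.124. The 4 called only there were CYP7A1, PCK1, TM4SF1 (a membrane protein, -2.29) and a probe set without a gene name. Soy pool 2 had the smallest shift from the sow mean among the 3 soy pools in 32 of the 54 probe sets: 26 of the 36 higher ones and 6 of the 18 lower ones.

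**Figure D4:**
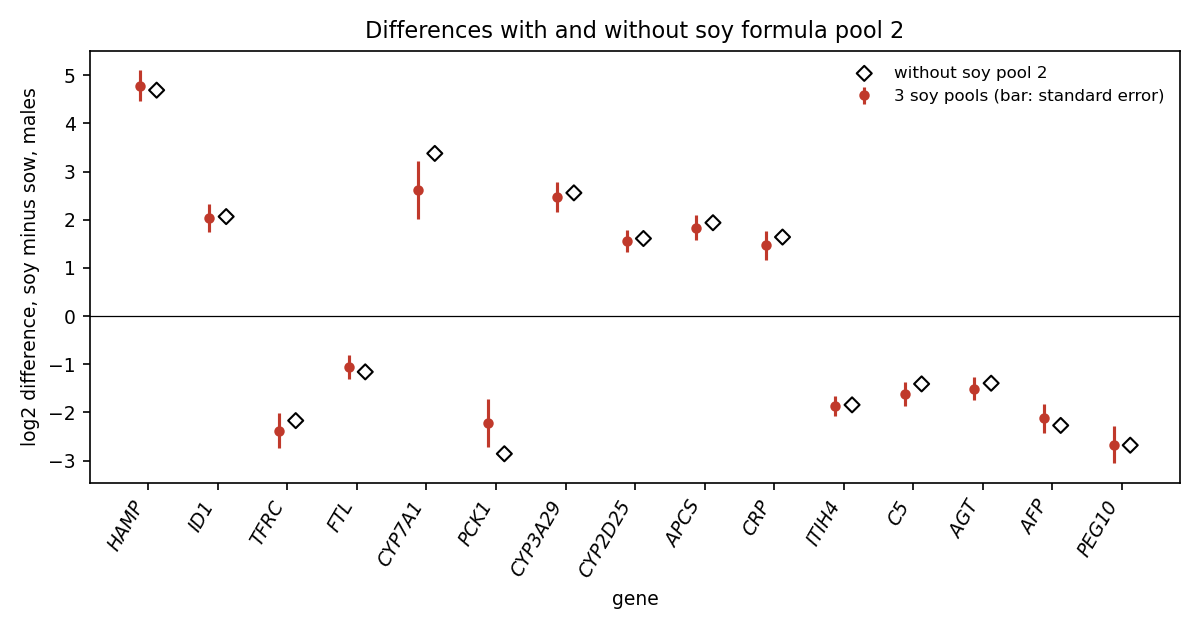
Log2 difference (soy formula minus sow milk, male pools) with its SE for 15 genes, in all 6 pools and without soy pool 2. CYP7A1 moves from 2.62 to 3.38 and PCK1 from -2.21 to -2.86, and HAMP from 4.78 to 4.69.

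Male piglets on the cow's milk formula show where soy formula stood against another formula. A limma fit to the 3 soy and 3 milk formula pools gave 0 called probe sets of 23935 (0%), with 1428 (5.97%) at an unadjusted p under 0.05 and a smallest adjusted p of 0.223. Milk formula against sow milk gave 22 (0.0919%), 18 (0.0752%) higher and 4 (0.0167%) lower, and 10 of the 26 named genes described above as risen or fallen were called there too. These comparisons share pools, so their values stand side by side only.

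HAMP gave 1.82, 0.643 and 1.01 on milk formula, 4.24 above sow milk, with soy formula above milk formula by 0.54 (SE 0.35). HMGCS1 gave 0.522, 0.667 and 1.41, 3.24 above sow milk, with soy above milk formula by 1.15 (SE 0.39). AFP gave 0.106, 0.301 and 0.186, a difference of -2.99 from sow milk, with soy formula above milk formula by 0.87 (SE 0.39). For these 3 genes both formulas lay on the same side of sow milk. All 54 called probe sets had the same sign on milk formula too, where the shared sow pools favour the same sign.

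For APCS the milk formula pools of 0.632, 0.462 and 0.617 lay near the sow pools, 0.35 above them on average. The soy pools of APCS were above the milk formula pools by 1.49 (SE 0.25, limma adjusted p 0.350). ARG1 likewise gave 0.464, 0.428 and 0.344 on milk formula, with soy above it by 1.48 (SE 0.25, limma adjusted p 0.350). The widest named gap was that of MT3, a zinc- and copper-binding metallothionein. MT3 gave 0.402, 0.282 and 0.309 on soy formula, 2.70, 1.21 and 5.41 on milk formula, and 0.649, 0.854 and 0.765 on sow milk. The soy minus milk formula difference of MT3 was -2.99 (SE 0.44, limma adjusted p 0.223). MT1A, another metallothionein, gave 0.472 to 0.636 on soy formula, 1.35 to 1.96 on milk formula and 0.52 to 1.31 on sow milk. Its soy minus milk formula difference was -1.61 (SE 0.24), and probes of this gene family may share signal. None of these gaps between the formulas passed the threshold, which does not show that the formulas act alike.

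The female pools, which share no array with the male ones, gave the same comparison a second time. All 54 probe sets had the same sign in females, and 50 of them passed the threshold there (34 higher, 16 lower), against 1697 (7.09%) of all probe sets called in females (3.8% higher, 3.29% lower) and a same sign in 55.2% of all probe sets. The median difference of the 36 higher probe sets was 2.07 in males and 2.66 in females, and that of the 18 lower ones was -1.83 and -1.60. In 29 of the 36 the female rise was the larger, and in 4 of the 18 the female fall was.

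HAMP rose by 4.51 (SE 0.11) in females, to 0.993, 0.82 and 1.01 from 0.0376, 0.0424 and 0.0436. SQLE rose by 4.59 (SE 0.31), to 2.22, 4.92 and 2.77 from 0.138, 0.17 and 0.0931. All 11 measured cholesterol synthesis genes rose in females, with a median of 3.76, against 6.53% of all named genes there. Of the 29 complement and coagulation genes 18 fell in females, with a median of -0.62, against 5.17% of all named genes. CYP7A1 rose there by 5.82 (SE 0.23), to 9.81, 13.7 and 14.5 from 0.312, 0.203 and 0.17. GOLGA7 and AFP were among the 4 probe sets not past the threshold in females, at -0.27 and -1.54.

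The test of the difference between the sexes, a limma interaction term over the 12 pools with array weights per sex, gave 0 probe sets, with 1610 (6.73%) at an unadjusted p under 0.05 and a smallest adjusted p of 0.0950; with equal weights it gave 2. The male minus female effect was -3.21 for CYP7A1 (SE 0.72, limma adjusted p 0.459) and -2.57 for SQLE (SE 0.64, adjusted p 0.573). GOLGA7 had the smallest unadjusted p of a named gene in this limma fit, with a difference of -1.22 (SE 0.21, adjusted p 0.218). FAM3D came next by unadjusted p, with a larger difference of -1.38 (SE 0.24, limma adjusted p 0.218). For HAMP and SCD the effects of the sexes were 0.27 (SE 0.34) and 0.07 (SE 0.40) apart. A response confined to males was not detectable with these pools.

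**Figure D5:**
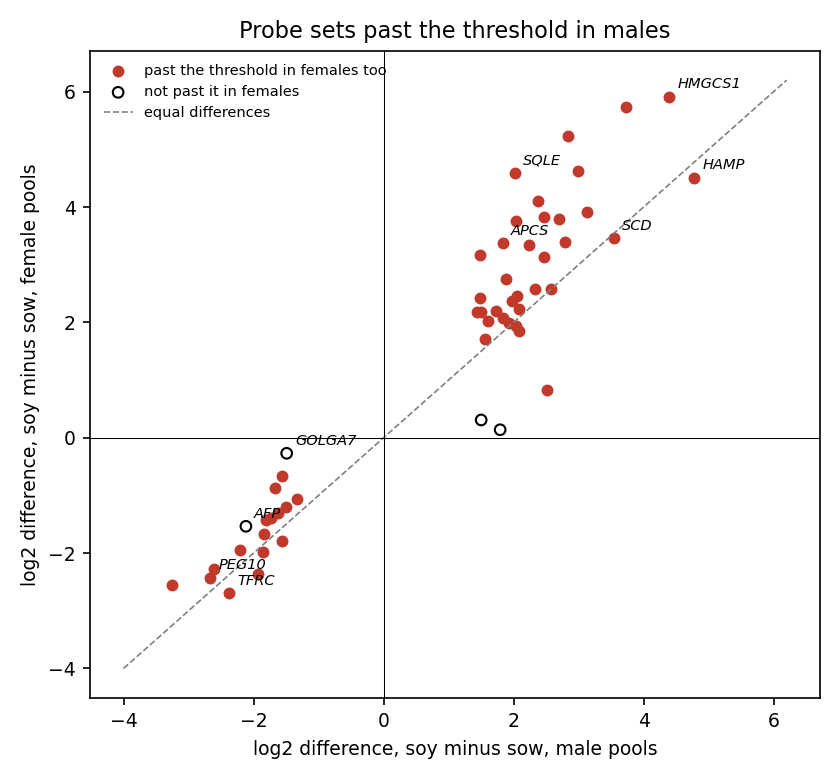
Log2 difference (soy formula minus sow milk) in males against that in females for the 54 probe sets called in males; open points did not pass the threshold in females. All 54 points lie in the quadrants of equal sign, and 4 are open.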

How the data were processed

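Liver RNA pools were hybridised to Affymetrix porcine arrays. GCOS and RMA are named as tools in the submitters' processing notes; no version of either is given in the sources used here. Values as deposited are linear ratios per probe set and array, with a divisor that is not described and is taken as shared by the arrays. All sample columns were matched, with 0 left over. Of 24123 probe sets 188 controls were left out; of the 23935 tested, 10069 name 1 gene (6765 genes), 198 several and 13668 none. Symbols come from an older platform annotation, and 0 were updated.

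Log2 ratios of the 6 male pools were compared with limma 3.58.1 under R 4.3.3, using lmFit and eBayes (4 residual and 6.87 prior degrees of freedom) and Benjamini-Hochberg adjustment at 0.05. Soy against milk formula was fitted on the 3 male pools of each, and sex by diet on 12 pools with array weights per sex. Where a gene has several probe sets, the one with the highest average log2 ratio over all arrays stands for it. As these are ratios, this pick does not show which probe set has the strongest signal. Figures used Python 3.11.15 and matplotlib 3.10.9.

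The genes named are at most 12 rises and 12 falls past the threshold, or the leading ones short of it without overlap, up to 4 called members of each list, up to 6 per direction in the other comparisons, and 31 fixed genes, of which 28 were measured (41 in all, 26 past the threshold). Members and lists (26 pathway and 10 cell marker lists, 465 of 717 symbols measured) were chosen with earlier results of these data known. List members not past the threshold, and leading genes of the formula and sex comparisons, are given as values and were named after these were seen. Alternatives left out each pool and changed the arrays fitted, variance model, weights, normalization, filter, offset, block, probe set rule and threshold. The number of arrays limits the precision.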

Additional observations from a re-analysis of the deposited data

Results flagged for a closer look

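The soy minus sow difference of IGFBP2, a binding protein of insulin-like growth factors, had opposite signs in the sexes. It passed the threshold in neither (limma adjusted p 0.964 in males and 0.144 in females). The male sow pools (0.804, 0.704 and 1.01) overlapped the male soy pools. The female sow pools were widely spread (3.43, 2.27 and 1.05), the last of them close to the female soy pools. All 3 male soy pools (1.01, 0.853 and 0.856) were above the male sow mean and all 3 female soy pools (0.935, 1.05 and 0.994) below the female sow mean, with differences of 0.12 and -1.03. The male effect was higher by 1.14 (SE 0.74, limma adjusted p 0.819 in the interaction fit), so the difference did not pass the threshold. It is given as a value only. Groups of 3 pools were too small for a test of single outlying pools.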

How the results depend on the processing

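Of the 26 named genes past the threshold, all 26 were called with robust variances, array weights, quantile normalization or median centring, 25 with all 18 arrays, 23 each with all 9 male arrays, the replicate block or an offset of 0.1, 21 with probe sets averaged per gene, and 8 to 16 without 1 pool. The 36 higher probe sets became 11 to 29 without 1 pool, 209 with all 18 arrays, 22 with 1 probe set per named gene, and 665 at an unadjusted p under 0.05 with a 1.5-fold limit. The 18 lower ones became 2 to 9, 28 with all 9 male arrays, 275 with all 18 arrays and 811 at the unadjusted limit. The count of 0 for soy against milk formula became 0 to 1 without 1 pool (1 without milk formula pool 2). It was 1 without the 40% of probe sets with the lowest mean log2 ratio. The count of 0 for the difference between the sexes became 0 to 1 (1 without female soy pool 1) and 2 with equal weights. The cause of these changes was not tested, apart from the fewer pools or probe sets and the shared spread that the alternatives bring by construction. In the other settings the higher count ran from 31 to 47 and the lower from 14 to 25. Same-numbered soy and sow pools had correlations of deviations of 0.0233, 0.0263 and -0.0219. No pairing by number was seen, and whether same-numbered pools share a litter or batch is not stated. The replicate block gave 31 higher and 15 lower. Without 1 pool the small differences ran from -0.20 to 0.77 for INSIG1 (below 0 without sow pool 1, and at -0.00432 without soy pool 2), from -0.00173 to 0.26 for IGFBP2 (below 0 without sow pool 2) and from -0.21 to 0.31 for IGF1 (below 0 without sow pool 2, and at -0.0553 and -0.0327 without sow pool 3 and soy pool 3). Quantile normalization gave -0.0261 for IGF1. Arrays carry no counts, so the number of arrays is the limit.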
